A study of Mus musculus with 6 samples.

Results

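The tetraspanins are small surface proteins that cross the membrane several times and hold integrins, immunoglobulin-superfamily proteins and proteases together in membrane microdomains. *Upk1a* and *Upk1b* encode uroplakins, best known from the plaques that line the bladder. Others (*Cd9*, *Cd63*, *Cd81*) are familiar as markers of extracellular vesicles, and *Cd37*, *Cd53* and *Cd82* as tetraspanins of leukocytes.

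The genes described here are 10 tetraspanins, *Upk1b*, *Upk1a*, *Cd9*, *Cd37*, *Cd53*, *Cd63*, *Cd81*, *Cd82*, *Cd151* and *Tspan4*, out of 23462 genes that had at least 1 named probe. *Upk1b* was chosen by its fall between the genotypes compared here, so its values are a description without a test. The other 9 were chosen as family members that microglia express, so their presence is no finding. All 10 were measured, by 16 probes, and all 16 probes were well above background on all 6 arrays. Probes were matched to genes by transcript accession.

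Live CD45lo Cx3cr1+ CD11b+ microglia were sorted from C57BL/6 mouse brain at 3 months of age and hybridised to 6 single-colour SurePrint G3 Mouse arrays. Bhlhe41 dTomato-Cre/+ mice (B41 HET, 3 samples) carry 1 copy of a dTomato-2A-Cre cassette placed ahead of the *Bhlhe41* start codon, and Bhlhe41 dTomato-Cre/dTomato-Cre mice (B41 KO, 3 samples) carry the cassette on both copies. Both genotypes therefore carry dTomato and Cre under the *Bhlhe41* promoter, no wild-type sample is among the 6, and each sample pooled cells of several mice. The comparison asks which transcripts change in microglia that cannot make Bhlhe41, a transcription factor that binds E-box DNA.

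Values are log2 fluorescence after quantile normalization, and a difference is B41 KO minus B41 HET on that scale. A gene or probe was called when limma gave it an adjusted p no greater than 0.05 and the difference reached 0.5 in either direction. The probe with the highest mean signal stood for a gene with several probes. Levels of different probes are not comparable, because probes differ in how strongly they bind. Precision is limited by having few arrays, and an exact permutation test of 3 samples against 3 cannot give a two-sided p under 0.1.

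Between 70.1% and 75.5% of the 56605 probes were well above background on an array, and no spot was saturated. The arrays shared 1 slide. Row 1 held the 3 B41 HET arrays with B41 KO replicate 1, and row 2 held the other two B41 KO arrays. The *Bhlhe41* transcript did not check the labels. Its brightest probe read 7.95, 7.87 and 7.65 in B41 HET and 8.56, 7.84 and 8.21 in B41 KO (difference 0.38, limma adjusted p = 0.330). Its other probe read 7.86, 7.58 and 7.40 in B41 HET and 7.96, 7.90 and 7.96 in B41 KO, without overlap (difference 0.33, adjusted p = 0.203). Neither probe was called, and where the probes lie relative to the cassette was not known here. All 8 microglia markers were well above background on all 6 arrays, and of these *Fcrls* was the 1 called, lower by 0.76. Other markers moved with genotype. All 7 neutrophil markers were called lower (median difference -2.51), and the summed linear signal of the list was 29640 to 33420 in B41 HET and 5549 to 6013 in B41 KO. All 7 border macrophage markers differed downward (median -1.26) and 4 were called lower, with summed signals of 2348 to 2537 and 1591 to 1777. Most of that sum is *Stab1*, the brightest of them at means of 11.07 and 10.58, which was not called (-0.49). The sum therefore does not describe the 4 called markers. Of 4 endothelial markers 2 were called lower, *Ly6c1* (-1.79) and *Pecam1* (-1.68), and the list gave summed signals of 1141 to 1250 and 391.9 to 442.9. *Cldn5* was not called (-0.13, limma adjusted p = 0.473), and *Flt1* was well above background on no array. Of 4 B cell markers 1 was called lower, and of 5 oligodendrocyte markers 1. In sorted cells measured as a whole, fewer cells of a type and less RNA per cell cannot be told apart.

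Of the 10 genes 2 were called lower (*Upk1b* and *Cd82*) and 1 higher (*Cd63*) in B41 KO, and 7 were not called. Among all 23462 genes 4.01% were called lower and 1.44% higher. Without *Upk1b*, 1 of 9 was called lower and 1 of 9 higher, with a median difference of 0.02 against 0.0067 over all genes. The samples of the genotypes did not overlap in 8 of the 10 genes, or 7 of 9 without *Upk1b*, where 32.2% of all genes showed no overlap. Counted by probe, 3 of the 16 were called lower, 1 higher and 12 not, and 2 of the 3 lower probes are those of *Upk1b*. Among the 14 probes of the other 9 genes 1 was called lower and 1 higher, beside 5.07% called in either direction among all probes tested. Normalization to the 75th percentile in place of quantiles moved the median of all probes from 0.02 to 0.13 and the calls from 1892 lower and 975 higher to 1534 and 1297. The same 3 of the 10 genes were called with that shift.

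**Figure D1:**
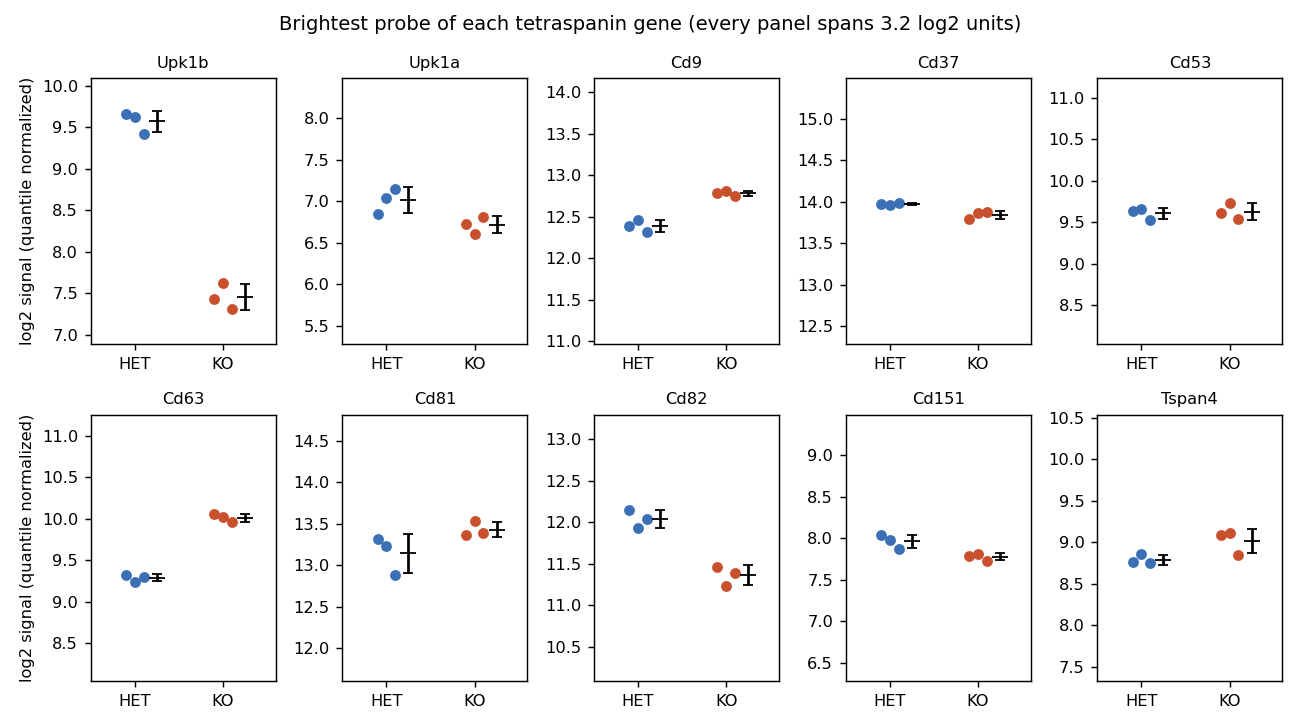
Log2 signal (vertical axis, quantile normalized) of the brightest probe of each of the 10 genes in the 3 B41 HET (blue) and 3 B41 KO (orange) samples. Points are samples, and black marks give the mean and SD. *Upk1b* spans most of its panel, *Cd82* lies lower and *Cd63* higher in B41 KO, and the samples of *Cd53* and *Tspan4* overlap.

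*Upk1b* gave log2 signals of 9.66, 9.63 and 9.42 in the B41 HET samples and 7.43, 7.63 and 7.31 in the B41 KO samples. All B41 KO samples were low, and the nearest samples of the genotypes lay 1.80 apart. The means were 9.57 ± 0.13 and 7.46 ± 0.16 (SD, n = 3), a difference of -2.11, or a 4.32-fold lower signal in B41 KO. Before any correction or normalization the spot read 934, 908 and 671 fluorescence units in B41 HET and 188, 207 and 170 in B41 KO, so the gap is visible in the scanner readings themselves.

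The second *Upk1b* probe, designed on the same transcript, read 6.44, 6.18 and 6.21 in B41 HET and 3.96, 3.52 and 3.58 in B41 KO. It too was low in every B41 KO sample, with a difference of -2.59 between means. Its size depended on the processing, being -0.79 with normexp on the median spot signals, against -1.76 for the brighter probe. That alternative changes the input signal together with the background correction, and adds an offset that compresses dim probes. In the 1 B41 KO array that shares slide row 1 with the B41 HET arrays, the difference of the brighter probe was -2.14.

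The 5 genes outside the family whose profile over the 6 samples lay nearest to *Upk1b*, each centred on its own mean, were *Ly6c2* (root mean square distance 0.0855), *Hspa1a* (0.0857), *Cd177* (0.0980), *S100a8* (0.109) and *Chil3* (0.109). *Ly6c2* encodes a surface antigen of monocytes, *Hspa1a* the inducible heat shock protein HSP70, *Cd177* a neutrophil surface protein, *S100a8* a subunit of calprotectin and *Chil3* the lectin Ym1 of myeloid cells. Their differences were -2.10, -1.98, -2.10, -2.22 and -2.26, near that of *Upk1b*, which the measure of likeness favours. *Ly6c2*, *Hspa1a* and *Chil3* have close paralogues whose RNA their probes may also bind. *S100a8* is one of the neutrophil markers that were called lower, and the part of such cells in the *Upk1b* difference was not tested. The paper describes the product of *Upk1b* as a membrane receptor specific to microglia. It ranks *Upk1b* top among the lowered genes of a list chosen partly on these samples. Of 4 mesothelial markers, a cell type known for *Upk1b*, 0 were called by limma and 0 had an unadjusted p under 0.05, and the list was split by signal. *Msln* and *Krt19* were well above background on all 6 arrays, with differences of -0.21 (limma adjusted p = 0.659) and 0.07 (adjusted p = 0.873), and *Upk3b* and *Lrrn4* on none.

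**Figure D2:**
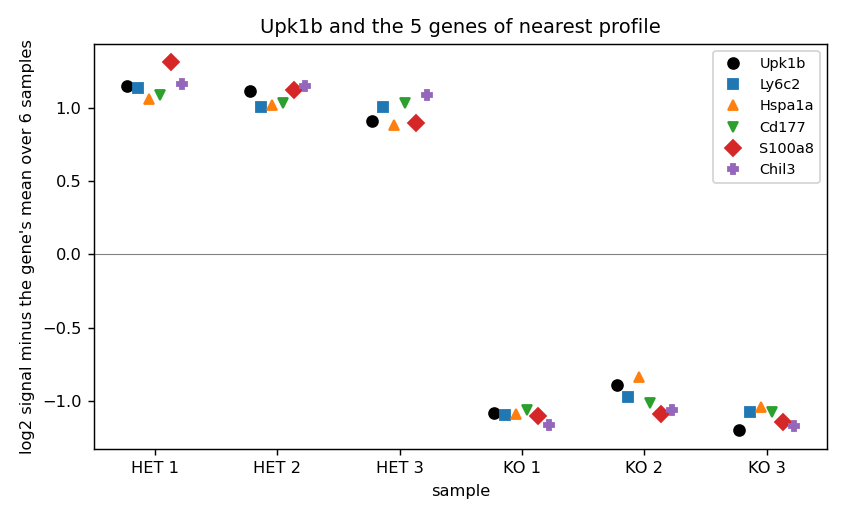
Log2 signal of *Upk1b* (black) and of the 5 genes of nearest profile, each minus its own mean over the 6 samples (vertical axis), by sample (horizontal axis). All 6 genes lie above their mean in the 3 B41 HET samples and below it in the 3 B41 KO samples.

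The other uroplakins were not called. *Upk1a*, the other uroplakin of tetraspanin fold, read 6.85, 7.05 and 7.15 in B41 HET and 6.73, 6.61 and 6.82 in B41 KO. Its samples were separated by 0.04, and the difference of -0.30 (standard error 0.11) was not called (limma adjusted p = 0.174). *Upk3a*, which pairs with *Upk1b* in plaques, differed by 0.28 (limma adjusted p = 0.276) and *Upk2*, which pairs with *Upk1a*, by -0.0082 (limma adjusted p = 0.980). *Upk3b*, the remaining uroplakin on the list, did not rise well above background in any sample.

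*Cd63*, a tetraspanin of late endosomes, lysosomes and secreted vesicles, was the 1 gene of the 10 called higher. It read 9.32, 9.24 and 9.30 in B41 HET and 10.05, 10.02 and 9.96 in B41 KO. The B41 KO samples were all high, and the nearest samples of the genotypes lay 0.63 apart. The means were 9.29 ± 0.04 and 10.01 ± 0.05 (SD, n = 3), a difference of 0.72 (standard error 0.07, limma adjusted p = 0.00749), or 1.65-fold. The array carries this probe on 10 spots, and the SD over the spots of an array was 0.0632 to 0.118. The highest B41 HET spot, at 9.45, lay under the lowest B41 KO spot, at 9.80. Spots of an array repeat the same hybridised sample, so they are not replicates of a genotype. The other 15 probes sit on 1 spot each.

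The call of *Cd63* held with each sample left out in turn, with adjusted p from 0.0273 to 0.0465 in limma. It was lost once slide row entered as a block, which compares B41 KO replicate 1 with the B41 HET arrays of the same row, where the difference was 0.77 and the adjusted p 0.0663. Row and genotype were only partly separable in this layout.

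*Cd82*, a tetraspanin that restrains cell migration, was the least uniform gene, since its 4 probes, all designed on 1 transcript accession, went different ways. The brightest read 12.15, 11.94 and 12.04 in B41 HET and 11.46, 11.24 and 11.39 in B41 KO, with all B41 KO samples low. Its difference of -0.68 (standard error 0.10, limma adjusted p = 0.0206) was called. The second probe read 10.86, 10.95 and 10.97 in B41 HET and 10.82, 10.89 and 10.80 in B41 KO, a difference of -0.09 (adjusted p = 0.518), and its samples overlapped.

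The remaining *Cd82* probes were high in B41 KO. The third in brightness read 10.10, 9.84 and 10.16 in B41 HET and 10.48, 10.44 and 10.58 in B41 KO, a difference of 0.47 (limma adjusted p = 0.0657), and the fourth read 9.37, 9.30 and 9.21 and then 9.59, 9.66 and 9.51, a difference of 0.29 (adjusted p = 0.0964). Neither was called, although no sample of one genotype reached the other. On the authors' processed values the third probe was called higher (0.52, limma adjusted p = 0.0488), opposite to the brightest. The change of the brightest probe and that of the third differed by -1.14 within arrays, without overlap between genotypes (exact permutation test, two-sided, p = 0.1, which is the floor for 3 against 3, for a pair of probes picked after their values were seen). Averaged over the 4 probes, *Cd82* differed by -0.0013 (adjusted p = 0.994). The call of the brightest probe was also lost with each sample left out in turn (adjusted p from 0.0519 to 0.0721), though its difference stayed at -0.73 to -0.62. It was lost as well after blocking on slide row (-0.57, adjusted p = 0.162). A direction for the *Cd82* gene as a whole is therefore not given by these probes.

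**Figure D3:**
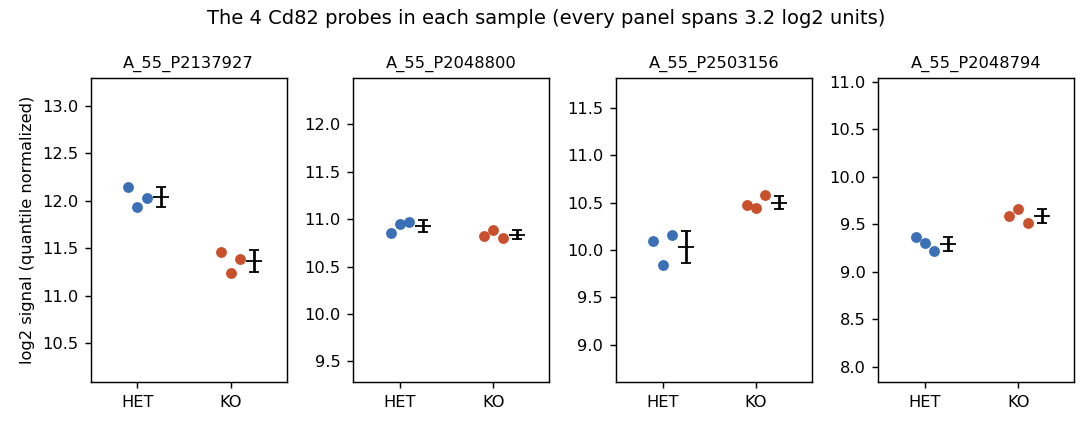
Log2 signal (vertical axis) of the 4 *Cd82* probes, from the brightest at left to the dimmest at right, in the 3 B41 HET (blue) and 3 B41 KO (orange) samples, with means and SD in black. The first panel falls by 0.68, the second has overlapping samples, and the last 2 panels lie higher in B41 KO.

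*Cd9*, which associates with integrins, read 12.39, 12.46 and 12.32 in B41 HET and 12.79, 12.81 and 12.75 in B41 KO. All B41 KO samples were high, by a gap of 0.29. The difference of 0.39 (standard error 0.07, limma adjusted p = 0.0376) passed the threshold on adjusted p and not that on fold, so it was not called. With any 1 sample left out its adjusted p was 0.0884 to 0.110.

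*Cd81*, the tetraspanin of the B cell co-receptor, read 13.31, 13.24 and 12.88 in B41 HET and 13.36, 13.54 and 13.40 in B41 KO on its brightest probe. The samples were separated by 0.05, and B41 HET replicate 3 was the lowest. The difference was 0.29 (limma adjusted p = 0.281, 95% interval -0.05 to 0.62), and without B41 HET replicate 3 it was 0.16. The second probe overlapped between the genotypes and differed by 0.05 (adjusted p = 0.719, interval -0.12 to 0.22).

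The leukocyte tetraspanins *Cd37* and *Cd53* were not called. The brightest *Cd37* probe read 13.98, 13.96 and 13.98 in B41 HET and 13.79, 13.86 and 13.88 in B41 KO, a difference of -0.13 (limma adjusted p = 0.316, 95% interval -0.29 to 0.03). Its other probe overlapped and differed by 0.07 (adjusted p = 0.686). *Cd53* read 9.64, 9.66 and 9.53 in B41 HET and 9.61, 9.74 and 9.54 in B41 KO, with samples intermixed. Its difference of 0.02 (adjusted p = 0.930, interval -0.19 to 0.23) had no steady sign, being -0.0076 with normalization to the 75th percentile.

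*Cd151*, which binds laminin-receptor integrins, read 8.04, 7.97 and 7.88 in B41 HET and 7.79, 7.81 and 7.73 in B41 KO. The samples were separated by 0.07, and the difference of -0.19 was not called (limma adjusted p = 0.219, 95% interval -0.37 to 0.0010). *Tspan4*, a tetraspanin known from migrasomes, read 8.76, 8.86 and 8.74 in B41 HET and 9.09, 9.12 and 8.85 in B41 KO. B41 KO replicate 3 fell among the B41 HET samples, and the difference of 0.23 was not called (adjusted p = 0.242, interval -0.01 to 0.47).

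**Figure D4:**
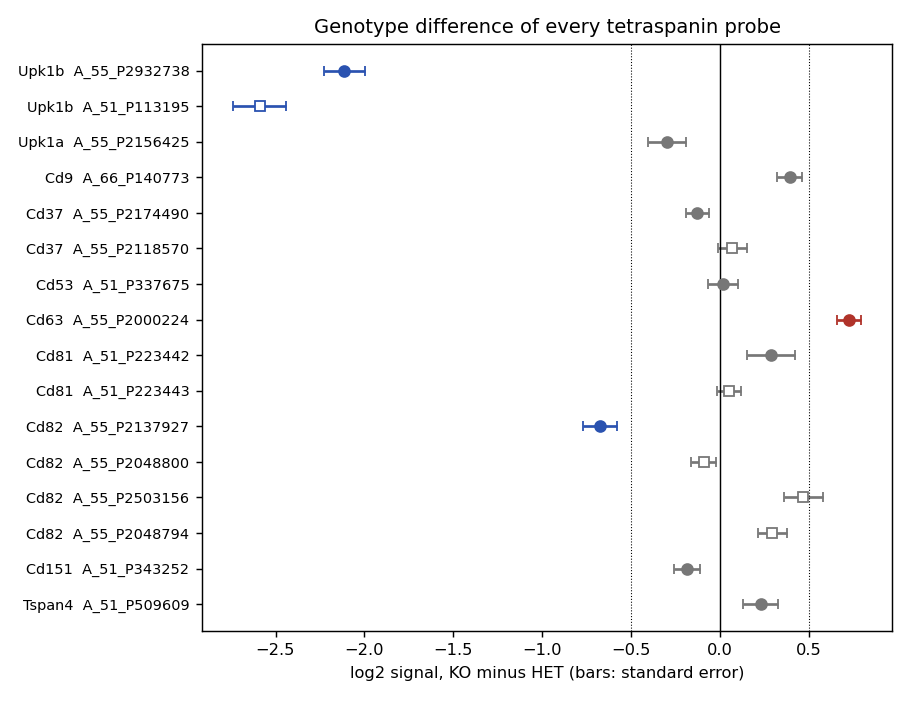
Difference in log2 signal between B41 KO and B41 HET (horizontal axis) with its standard error for each of the 16 probes, filled circles for the brightest probe of a gene and open squares for the others. Dotted lines mark a difference of 0.5 either way, and called probes are blue (lower) or red (higher). The *Upk1b* probes stand at -2.11 and -2.59, and the *Cd82* probes lie on both sides of 0.

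Bhlhe41 binds the E-box, with CACGTG as the preferred form of the general CANNTG, so the 250 bases before each annotated start were searched for both, overlaps counted. CACGTG, and CANNTG as a pattern, read the same on both strands. RefSeq promoter windows (GRCm38.p6) matched 9 of the 10 genes, in 14 windows, and *Upk1b* had no entry. CACGTG occurred in 2 of the 14 windows, 1 of *Cd37* and 1 of *Tspan4*, and in 6.02% of 32851 windows of that length. CANNTG, which includes CACGTG, occurred in 11 of the 14 windows and in 66.2% of all windows. Both genes with CACGTG were not called, and the window of *Cd63*, which was called higher, held neither form. *Cd82*, called lower by its brightest probe, had CANNTG in 2 of its 4 windows and CACGTG in none. Bases further upstream were not searched. Some promoter sites at which the paper reports Bhlhe41 binding, including that of *Cd22*, lie further upstream than these windows reach. Whether Bhlhe41 acts directly on any of the 10 genes was therefore not tested. The windows with CACGTG and that of *Cd63* are given, 5′ to 3′ on the strand of the gene with CANNTG in capitals, as letter matches and not as binding sites. They are chr7:45238840-45239089 (minus strand) for *Cd37*, chr7:141476130-141476379 (plus strand) for *Tspan4* and chr10:128909095-128909344 (plus strand) for *Cd63*.
Cd37: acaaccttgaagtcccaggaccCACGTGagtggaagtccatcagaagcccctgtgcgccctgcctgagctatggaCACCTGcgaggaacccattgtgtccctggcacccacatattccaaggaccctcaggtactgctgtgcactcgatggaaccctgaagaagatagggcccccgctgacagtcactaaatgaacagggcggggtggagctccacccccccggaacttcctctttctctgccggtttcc
Tspan4: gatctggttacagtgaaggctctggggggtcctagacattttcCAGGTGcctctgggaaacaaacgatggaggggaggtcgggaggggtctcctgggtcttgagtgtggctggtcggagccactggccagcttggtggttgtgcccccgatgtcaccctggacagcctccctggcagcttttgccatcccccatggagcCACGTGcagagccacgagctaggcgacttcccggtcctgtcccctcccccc
Cd63: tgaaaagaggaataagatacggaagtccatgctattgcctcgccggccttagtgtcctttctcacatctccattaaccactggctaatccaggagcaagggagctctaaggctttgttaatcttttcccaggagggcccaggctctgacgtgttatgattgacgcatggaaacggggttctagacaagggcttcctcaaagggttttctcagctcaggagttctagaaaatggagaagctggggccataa

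The 21 other tetraspanins were all measured, and 15 of them were well above background on all 6 arrays. By the brightest probe 1 was called lower, 0 higher and 20 not, beside 4.01% lower and 1.44% higher among all genes. The median difference was -0.10 against 0.0067 over all genes. That median had no steady sign, from -0.16 without B41 KO replicate 1 to 0.06 with normalization to the 75th percentile. The 1 called was *Tspan9*, a tetraspanin known from platelets, which read 7.85, 8.06 and 7.90 in B41 HET and 6.98, 7.35 and 7.42 in B41 KO. All B41 KO samples were low, with a difference of -0.69 (standard error 0.14, limma adjusted p = 0.0478). The call was lost with each sample left out in turn (adjusted p from 0.0731 to 0.148), though the difference stayed at -0.78 to -0.56. It was also lost with normalization to the 75th percentile (-0.67, adjusted p = 0.0559). *Tspan9* is also on a list that the study chose partly on these samples, so its call is not independent of that choice. A second *Tspan9* probe was too dim to be well above background. Of 4 platelet markers 0 were called by limma and 1 had an unadjusted p under 0.05.

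*Tspan17* and *Tspan31* passed on adjusted p but not on fold, with differences of 0.46 (limma adjusted p = 0.0280) and 0.42 (adjusted p = 0.0334), and a second *Tspan31* probe differed by -0.08 (adjusted p = 0.774). *Tspan17* belongs to the tetraspanins that escort the protease Adam10 to the surface, together with *Tspan5*, *Tspan10*, *Tspan14*, *Tspan15* and *Tspan33*. None of these 6 was called, and their differences ran from -0.42 in *Tspan5* to 0.58 in *Tspan10*. *Adam10* itself differed by -0.03 (adjusted p = 0.900), and its dimmer probe by 0.17 (adjusted p = 0.429).

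Of 17 genes for known partners of tetraspanins, 1 was called higher, 0 lower and 16 not, beside the same shares of 1.44% and 4.01% among all genes. The median difference was -0.03, and it ran from -0.05 without B41 HET replicate 1 to 0.08 with normalization to the 75th percentile. The 1 called was *Igsf8*, the immunoglobulin-superfamily protein EWI-2 that binds Cd9 and Cd81. It read 5.70, 5.73 and 5.52 in B41 HET and 6.56, 6.40 and 6.46 in B41 KO, with all B41 KO samples high. The difference was 0.82 (standard error 0.09, limma adjusted p = 0.0107), and its call held with each sample left out in turn (adjusted p from 0.0395 to 0.0479). With normexp on median signals the difference was 0.47, under the fold threshold, and after blocking on slide row it was 0.91 (adjusted p = 0.0729). The related *Ptgfrn* differed by -0.26 (adjusted p = 0.357), and the integrin genes *Itga3*, *Itga6* and *Itgb1* by 0.22, 0.12 and 0.08, none of them called. *Itga4*, at -0.34 (adjusted p = 0.637), was well above background in no sample. *Ifitm1*, an interferon-induced transmembrane protein, was not called either (adjusted p = 0.0570). Its signals of 3.73, 3.89 and 4.31 in B41 HET and 2.50, 3.13 and 3.11 in B41 KO did not overlap, but it was well above background on the 3 B41 HET arrays and only 1 B41 KO array, so its fitted difference of -1.07 sets B41 HET against a group near background.

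**Figure D5:**
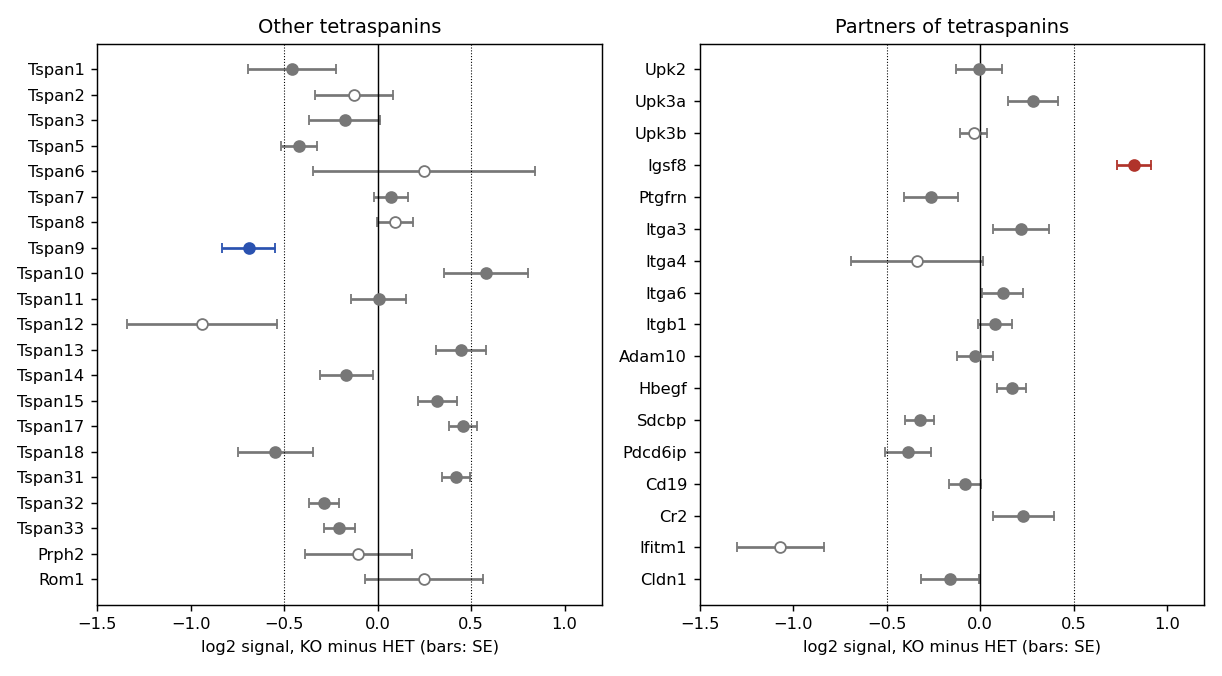
Difference in log2 signal between B41 KO and B41 HET (horizontal axis) with its standard error, by the brightest probe, for the 21 other tetraspanins (left) and 17 partner genes (right). Open circles were not well above background on all 6 arrays, dotted lines mark 0.5 either way, and the called genes, *Tspan9* at -0.69 and *Igsf8* at 0.82, are coloured.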

How the data were processed

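For each array the authors deposited the output of Agilent Feature Extraction 11.5.1.1, in which the processed intensity is background-subtracted within the array and not normalized between arrays. They also deposited a table of processed log2 values of the same arrays, quantile normalized according to the Methods, which ranked the probes as each array did (Spearman correlation of 0.999999 to 1) and was used as an alternative. The scale of that table is not stated and was read from its values.

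Control spots were left out, as were 95 to 136 outlier-flagged spots per array. The log2 processed intensity was quantile normalized and averaged over the spots of a probe, as the Methods name quantile normalization and limma. Of 56605 probes, 56601 with at least 2 values in each genotype were tested with limma 3.58.1 in R 4.3.3, with genotype as the only term and Benjamini-Hochberg adjustment over all probes. The calling threshold is that of the Methods. Probes were named through a RefSeq table (GRCm38.p6), which named 33767 of them (59.7%). The array design names mm9, so the promoter windows are the only coordinates given. The model was tested on simulated data. Plots used matplotlib 3.10.9 (Python 3.11.15). The alternatives were normalization to the 75th percentile, the authors' values, normexp with an offset of 50 on median spot and background signals, restriction to probes that 3 or more arrays showed well above background, keeping outlier spots, trend and robust variance, blocks for replicate number or slide row, leaving out single samples, no fold threshold, and a gene's mean over probes or its probe of lowest p. The members, the other lists and the rule for named genes (all members, the called genes of the other tetraspanins and partners, and the 5 genes of profile nearest to *Upk1b*) were chosen with earlier results of these data known. *Tspan17*, *Tspan31*, *Ifitm1*, *Ptgfrn*, the integrins, the Adam10 group and the neighbours of *Upk1b* were picked after the values were seen. The labels call the samples biological replicates and the Methods describe pools of mice, so p-values cover the spread between such pools.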

Additional observations from a re-analysis of the deposited data

How the results depend on the processing

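All 16 alternatives kept *Upk1b* lower (from -2.35 to -1.76) and *Cd63* higher (from 0.67 to 0.77), but the call of *Cd63* was lost with the replicate block (limma adjusted p = 0.0736) and the slide-row block (0.0663), as was that of *Cd82* (0.0742 and 0.162). The count of called probes, 2867, was 1500 with normexp, 444 after blocking on slide row, 42 with the replicate block and 796 to 1487 with 1 sample left out. Same-numbered samples did not deviate together (correlations of 0.0136 to 0.0478 across probes), so the replicate numbers were not taken as pairs. Under either block the 1 member called was *Upk1b*, the gene chosen by its fall. Among the other tetraspanins 0 were called with normalization to the 75th percentile, the replicate block, the slide-row block or the mean over probes (9, 9, 4 and 8 of the 21 at an unadjusted p under 0.05 in limma, a level that 5873 of all 23462 genes passed without these changes), 3 without the fold threshold, and 0 to 1 with 1 sample left out, the 1 being *Tspan12*, not well above background on any array, without B41 HET replicate 1. Among the partners 0 were called with normexp, the replicate block or the slide row (5, 4 and 4 at an unadjusted p under 0.05), and 2 with dim probes left out, *Igsf8* and *Ifitm1*, the latter passing that filter through the B41 HET arrays, so that its call there is no support. *Cd53* changed sign with normalization to the 75th percentile (-0.0076), normexp (-0.034) and the slide row (-0.0016), and spanned -0.037 to 0.062 with 1 sample left out. The causes were not tested.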

Other observations

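The genes next to *Upk1b* in the RefSeq order were read as well. *B4galt4*, a galactosyltransferase gene on one side, read 9.71, 9.49 and 9.57 in B41 HET and 8.98, 8.87 and 8.78 in B41 KO. It was called lower, as were 4.01% of all genes, with a difference of -0.71 (standard error 0.09, limma adjusted p = 0.0168). It kept its call in 1 of the 6 fits with a sample left out (adjusted p from 0.0443 to 0.0624). With the slide row as a block its adjusted p was 0.139, and with the replicate block 0.0764. *Arhgap31*, the next gene on that side, differed by -0.34 (adjusted p = 0.0409), under the fold threshold. *Tex55* and *Igsf11* on the other side were not well above background on any array.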
